A study of Rattus norvegicus with 4 samples.

Results

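The mast cell chymases are described here through every probe set whose platform annotation gives a single symbol among 9 genes, Mcpt1, Mcpt1l1, Mcpt2, Mcpt3, Mcpt4, Mcpt8, Mcpt9, Mcpt10 and Cma1. Of these 9 genes, 8 had such a probe set, 1 each, which makes 8 genes of the 14217 that had a set with a single symbol. No probe set carried Mcpt2 as its only symbol, and Mcpt2 was not analysed here. Expression was measured in AA4-selected cells of pancreatic lymph nodes from 2 groups of female BioBreeding rats at day 65, with AA4 an antibody against gangliosides of rat mast cells. DRlyp/lyp rats, titled DP and labelled diabetic prone, are homozygous for lyp, a mutation of Gimap5 that leaves few T cells in the periphery and leads to autoimmune diabetes. DR+/+ rats, titled DR and labelled diabetic resistant, have the intact gene. Apart from the lyp genotype the labels give both groups the same sex, age, organ and selection, and no treatment. Each group's RNA came from 8 animals combined into 1 pool, which went through 2 separate amplifications and onto 2 arrays, so that there were 4 arrays in all. Each SD below is therefore over 2 arrays of 1 pool. Each SE is that of a log2 difference fitted by limma, which moderates the spread across probe sets. Neither covers the spread between animals, and each p-value compares the pools and not the strains. Signal is in linear units as deposited, and the number of arrays limits its precision.

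Chymases are serine proteases that mast cells store in granules, bound to serglycin proteoglycan and activated by the dipeptidyl peptidase cathepsin C, and that they release on degranulation. Rats have many more of them than humans, in a cluster of tandem copies. In the rat, the chymases rMCP-1 and rMCP-5 (the product of Cma1) are products of connective tissue mast cells, which also hold tryptases and carboxypeptidase A. The chymase rMCP-2 is a product of mucosal mast cells, as are rMCP-8, rMCP-9 and rMCP-10, which are closely related to each other. Gene symbols and protein names of this family do not map cleanly. The RefSeq gene table lists both rMCP-1 and rMCP-2 as synonyms of Mcpt1, whereas for Mcpt1l1 it lists rMCP-1 and Mcpt1 and no rMCP-2. Whether the Mcpt1 probe set marks connective tissue or mucosal mast cells is thus not settled by its symbol. Mcpt3 and Mcpt4 were not assigned to either type here.

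Promoter sequence shows which of these genes are near copies upstream. Among the 7 members with a promoter window in RefSeq (GRCr8 build, 250 bases before to 50 after the gene's start), the windows of Mcpt1, Mcpt1l1, Mcpt3 and Mcpt4 were 82.1% to 94.7% identical to each other, and those of Mcpt8 and Mcpt9 were 96.9% identical. Identity between these 2 sets, and with Cma1, was 53.0% to 57.7%. Because end gaps were free, these pairs were aligned over 78 to 334 positions, and the near copies over 282 to 305. The 57.7%, of Mcpt1 with Cma1, rests on the 78 positions. The stretch below is shown because genes that share it differed in opposite directions between the pools. Capitals mark TGATAA, a form of the motif read by GATA factors, and TATAAAAG, a TATA box, both searched on both strands. The 4 stretches lie on chromosome 15, for Mcpt1 at chr15:33841491-33841590 on the plus strand, for Mcpt1l1 at chr15:33876910-33877008 on the minus strand, for Mcpt3 at chr15:33501836-33501934 on the plus strand and for Mcpt4 at chr15:33471360-33471458 on the plus strand.
Mcpt1: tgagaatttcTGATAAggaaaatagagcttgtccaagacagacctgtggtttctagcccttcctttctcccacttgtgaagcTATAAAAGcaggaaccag
Mcpt1l1: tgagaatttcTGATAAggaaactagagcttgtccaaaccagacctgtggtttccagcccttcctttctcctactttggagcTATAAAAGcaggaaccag
Mcpt3: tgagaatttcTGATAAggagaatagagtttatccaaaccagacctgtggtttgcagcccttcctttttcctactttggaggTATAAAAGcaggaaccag
Mcpt4: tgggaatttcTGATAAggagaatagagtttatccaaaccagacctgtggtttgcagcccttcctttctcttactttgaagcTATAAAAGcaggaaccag
In these stretches of 99 or 100 bases, Mcpt1 and Mcpt1l1 were 93.0% identical and Mcpt3 and Mcpt4 94.9%. TGATAA occurred in 9.03% of all 33469 promoter windows, TATAAAAG in 1.69% and both in 0.224%. The 4 stretches are near copies that share most of their bases, so the 4 genes are not independent holders of the pair. Neither was found in the windows of Mcpt8, Mcpt9 and Cma1, and Mcpt10 had no window. A match is a description of the letters and not of a bound factor. Most of each window lies before the gene's start, so its identity does not measure how alike the transcripts are. Transcript sequences were not compared. Probes against similar transcripts can read each other's targets. The probe sequences were not used here, so how far a member's signal includes that of its copies was not tested.

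The family did not move as a block. Of the 8 members, 3 were higher in the DRlyp/lyp pool (Mcpt1, Mcpt3 and Mcpt4), 2 were lower (Mcpt1l1 and Mcpt9) and 3 did not pass the threshold (Mcpt8, Mcpt10 and Cma1), by limma, with p-values adjusted (Benjamini-Hochberg) across every tested probe set and a threshold of 0.05. In RNA of a cell pool, fewer cells of a type and less RNA per cell cannot be told apart, and this holds for each member. All 8 passed the filter on dim probe sets, a signal above 28.3 on at least 2 arrays, and 6 of them lay above it on all 4 arrays. Mcpt4 lay below it on both DR+/+ arrays and could only be higher. The counts and the median given here include Mcpt4. The share called, 5 of 8, is read against a background in which 39.2% of the 16068 probe sets tested were called, 19.3% as higher and 19.9% as lower in the DRlyp/lyp pool. Centring each array on its median shifted the median difference of all tested sets to -0.12 and the share of calls that were higher to 35.9%, against 49.3% as deposited, and changed the sign of no called member. In 6 members the arrays of the pools did not overlap, as was so for 70.0% of all probe sets tested. The median log2 difference, DRlyp/lyp minus DR+/+, was 0.50 over the 8 members and 0.00 over all probe sets tested.

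**Figure D1:**
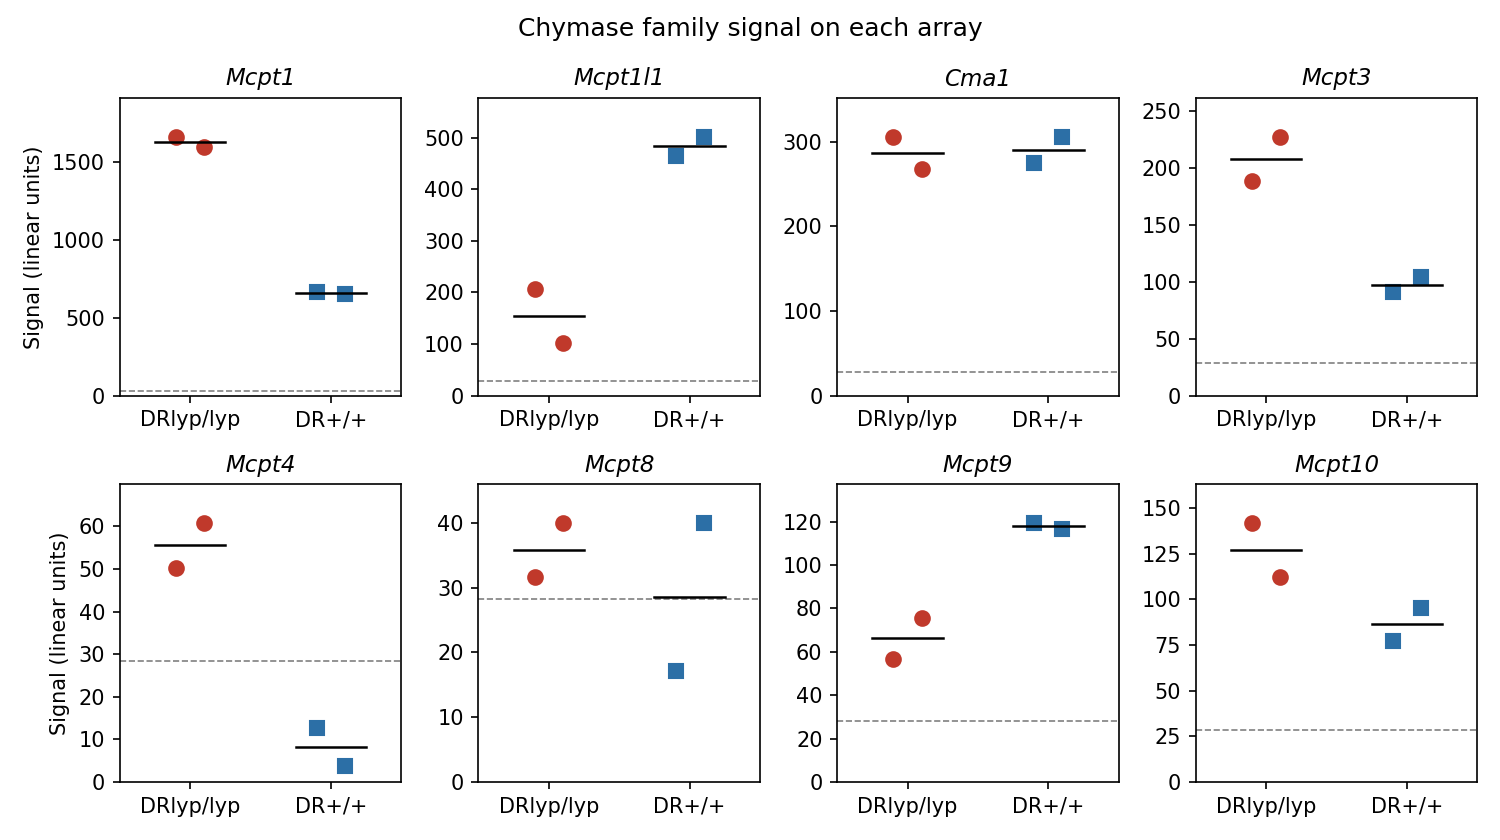
Signal in linear units (vertical axis, from 0) of each chymase probe set on each array, with the 2 DRlyp/lyp arrays as circles and the 2 DR+/+ arrays as squares. Bars are the mean of the 2 arrays and the dashed line is the filter of 28.3, and the pools overlap for Cma1 and Mcpt8 and are apart for the other 6.

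Mcpt1 had the smallest adjusted p of the 8 members. It read 1664.8 and 1601.9 on the DRlyp/lyp arrays, against 668.9 and 655.4 on the DR+/+ arrays. Every DRlyp/lyp array lay above every DR+/+ array, and the arrays of a pool differed by no more than 1.04-fold. The means were 1633 ± 44.5 in the DRlyp/lyp pool and 662 ± 9.55 in the DR+/+ pool (SD, n = 2 arrays each), a log2 difference of 1.30 ± 0.08 (SE) or 2.47-fold higher (limma, adjusted p = 4.14e-07). Its call stood under all 13 alternatives run, with log2 differences of 1.19 to 1.33. Of the 16068 probe sets tested, 3.65% had a larger positive difference.

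Mcpt1l1, whose synonyms in RefSeq are those of the connective tissue chymase rMCP-1, went the other way. It read 207.4 and 102.3 on the DRlyp/lyp arrays, against 464.7 and 501.5 on the DR+/+ arrays. The DRlyp/lyp amplifications themselves differed by 2.03-fold, the DR+/+ ones by 1.08-fold, and the pools did not overlap. The means were 155 ± 74.3 in the DRlyp/lyp pool and 483 ± 26.0 in the DR+/+ pool (SD, n = 2 each), with a log2 difference of -1.73 ± 0.25 (SE), 3.31-fold lower (limma, adjusted p = 0.000237). The size rested on which DRlyp/lyp array was used: it was -2.24 without DRlyp/lyp replicate 1 and -1.22 without DRlyp/lyp replicate 2, both past the threshold. With no filter on dim probe sets the call was lost (adjusted p = 0.166). Of the probe sets tested, 1.08% had a more negative difference.

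The opposite differences of these near copies were compared as the difference of Mcpt1 minus that of Mcpt1l1 on the log2 scale. It was 3.03, an 8.17-fold shift of the ratio between their signals, and both DRlyp/lyp arrays lay above both DR+/+ arrays. In an exact permutation test over the 4 arrays, two-sided, p was 0.333, which is the smallest p that 2 arrays against 2 allow, and 0.389 after adjustment over the 7 pairs of near copies compared. The difference of Mcpt1l1 minus that of Mcpt3 was -2.82, with the same p. Cma1, which encodes the rat chymase rMCP-5, differed little between the pools. It read 305.7 and 267.8 on the DRlyp/lyp arrays, against 274.4 and 305.2 on the DR+/+ arrays, and the pools overlapped. Its log2 difference was -0.02, with a 95% interval of -0.32 to 0.29 (limma, adjusted p = 0.938).

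Mcpt3 was higher in the DRlyp/lyp pool by about the same factor as Mcpt1. It read 188.7 and 227.1 on the DRlyp/lyp arrays, against 90.6 and 103.9 on the DR+/+ arrays, with no overlap. The log2 difference was 1.09 ± 0.19 (SE), 2.13-fold higher (limma, adjusted p = 0.000752). The call was lost with no filter on dim probe sets (adjusted p = 0.0718) and in a test against a 1.5-fold difference (adjusted p = 0.117). The difference of Mcpt1 minus that of Mcpt3 was 0.21 on the log2 scale, and here the arrays of the pools overlapped (exact permutation p = 0.667, two-sided and adjusted over the 7 pairs). Mcpt4, whose promoter window is 94.7% identical to that of Mcpt3, read 50.3 and 60.8 on the DRlyp/lyp arrays, against 12.7 and 3.7 on the DR+/+ arrays. Both DR+/+ arrays lay below the filter, so Mcpt4 entered the test only through the DRlyp/lyp pool and could only be higher. Against the filter value its signal was at least 1.95-fold higher, a bound that was not itself tested. Its fitted log2 difference of 2.57 (limma, adjusted p = 0.00117) depended on where low signals were floored, here at 6.8. With no filter its call was lost too (adjusted p = 0.105).

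The Mcpt8 group, whose protein products in the rat mark mucosal mast cells, gave no common direction. Mcpt9 read 56.7 and 75.7 on the DRlyp/lyp arrays, against 119.4 and 116.5 on the DR+/+ arrays, without overlap. Its log2 difference was -0.85 ± 0.23 (SE), 1.80-fold lower (limma, adjusted p = 0.0131). That call was lost without DRlyp/lyp replicate 1 (-0.64, adjusted p = 0.138) and narrowly without DR+/+ replicate 1 (-0.83, adjusted p = 0.0501). It was lost as well with no filter (adjusted p = 0.140) and in the test against a 1.5-fold difference (adjusted p = 0.7497).

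Mcpt10 read 141.8 and 112.4 on the DRlyp/lyp arrays, against 77.4 and 95.2 on the DR+/+ arrays. The pools did not overlap, yet the log2 difference of 0.56, with a 95% interval of 0.07 to 1.04 before adjustment, missed the threshold (limma, adjusted p = 0.0651). It passed without DR+/+ replicate 2 (0.71, adjusted p = 0.0486). Mcpt8 lay close to the filter, at 31.7 and 40.0 on the DRlyp/lyp arrays, against 17.2 and 40.0 on the DR+/+ arrays. Its pools overlapped, and the log2 difference of 0.44 had a 95% interval of -0.54 to 1.43 (limma, adjusted p = 0.471). The difference of Mcpt8 minus that of Mcpt9 was 1.29 on the log2 scale, with the smallest exact permutation p of 0.333 (0.389 adjusted over the 7 pairs). It was 0.66 without DR+/+ replicate 1 and 1.92 without DR+/+ replicate 2, and the difference of Mcpt8 itself was -0.17 and 1.05 without these arrays.

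A further probe set is annotated to 4 genes at once, Mcpt8, Mcpt9, Mcpt10 and the paralog Mcpt8l2, and was kept apart from the members. It read 497.9 and 648.9 on the DRlyp/lyp arrays, against 371.5 and 433.9 on the DR+/+ arrays. The log2 difference was 0.50 ± 0.14 (SE), higher in the DRlyp/lyp pool (limma, adjusted p = 0.0137), opposite to that of the set annotated to Mcpt9 alone. Which of the 4 genes gave its signal was not tested.

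**Figure D2:**
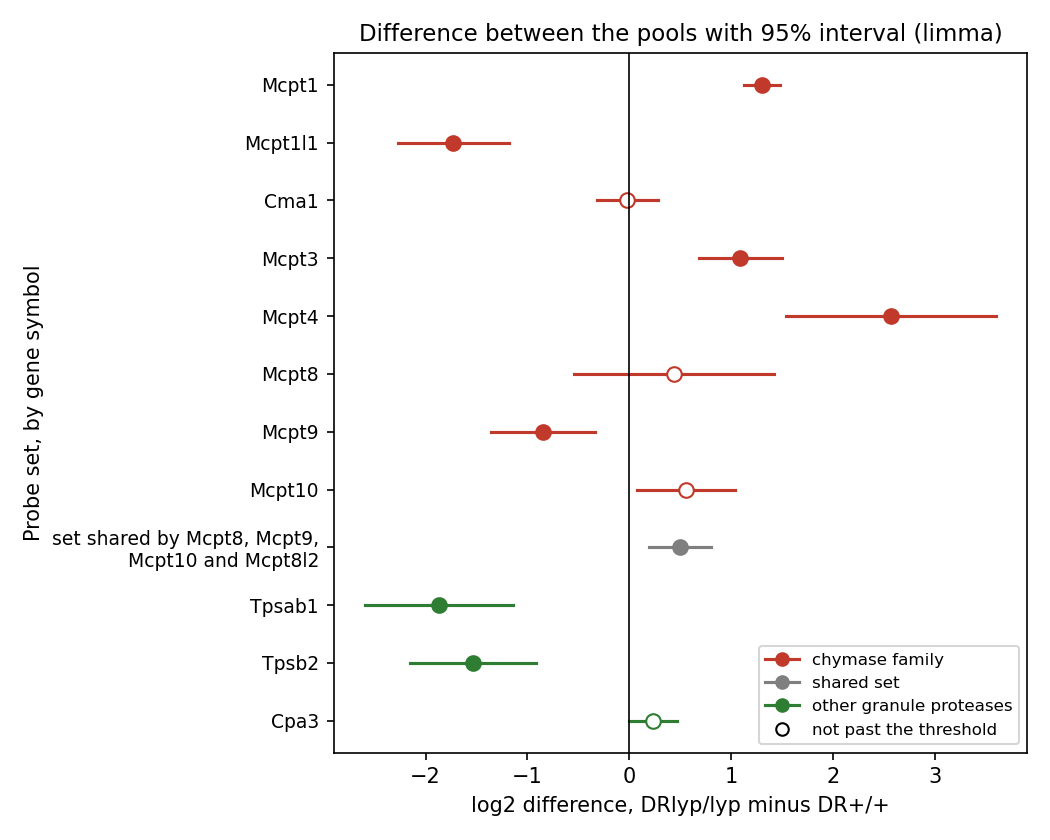
Difference between the pools on the log2 scale (horizontal axis, DRlyp/lyp minus DR+/+) for the 8 chymase probe sets, the set annotated to 4 genes and the other granule proteases, 1 per line. Points are limma estimates and lines their 95% intervals before adjustment, filled where the adjusted p passed 0.05, with Mcpt1, Mcpt3, Mcpt4 and the shared set to the right of 0 and Mcpt1l1, Mcpt9, Tpsab1 and Tpsb2 to the left.

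Members of either direction lay side by side in the genome. In the RefSeq annotation all 8 lie on chromosome 15, in a run of 26 annotated genes from Cma1 to Mcpt10, of which 17 are protein coding and 9 are pseudogenes. Mcpt9, Mcpt1, Mcpt1l1 and Mcpt10 follow each other there with no annotated gene between them, and their log2 differences alternated in sign, at -0.85, 1.30, -1.73 and 0.56. The last of these did not pass the threshold. Mcpt4 and Mcpt3, both higher, lie on the other side of the run, with a pseudogene between them. Beside the members, the 1 gene of the run with a probe set of its own was Vch, the rat vascular chymase, which was singled out after its values were seen. It read 33.7 and 48.9 on the DRlyp/lyp arrays, against 11.1 and 10.7 on the DR+/+ arrays, at least 1.43-fold higher. Both DR+/+ arrays lay below the filter, so Vch entered the test only through the DRlyp/lyp pool and could only be higher, and its values are given as a description. Of the granzyme genes just beyond Mcpt10, Gzmn did not exceed 4.3 on any array and Gzmf read 23.1 and 32.1 on the DRlyp/lyp arrays, against 15.4 and 9.2 on the DR+/+ arrays, so neither entered the test.

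**Figure D3:**
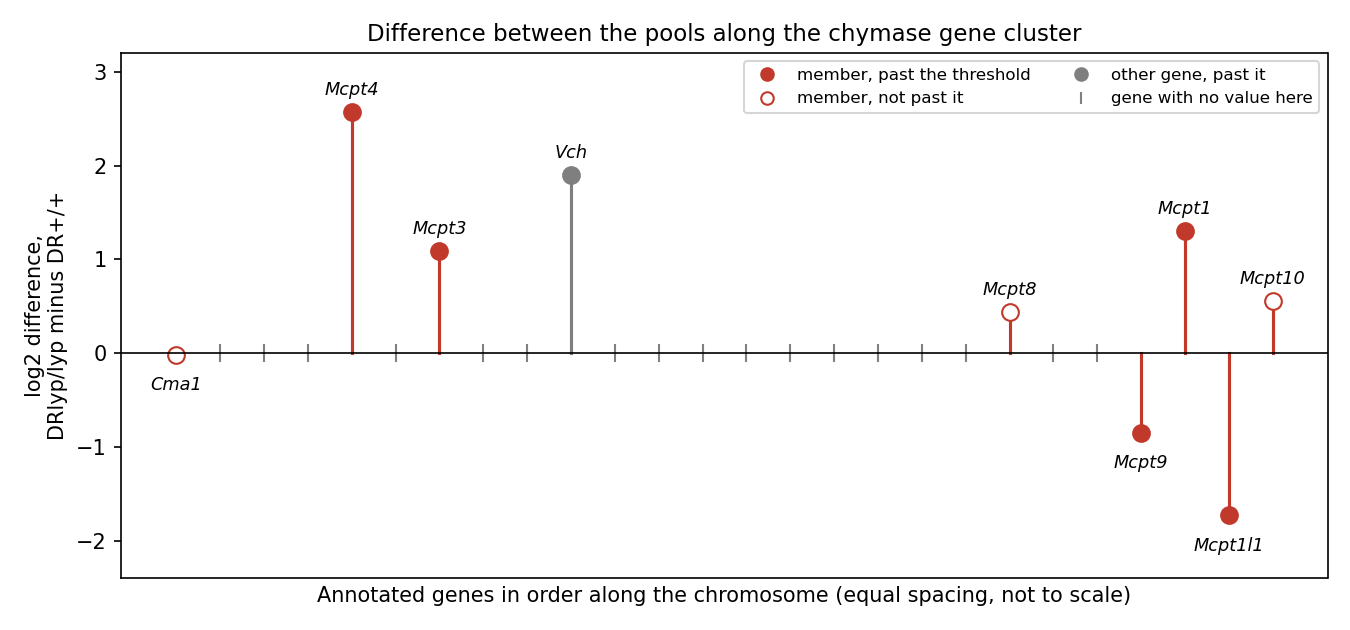
Difference between the pools on the log2 scale (vertical axis, DRlyp/lyp minus DR+/+) for the genes from Cma1 to Mcpt10 in their order along chromosome 15 (horizontal axis, equal spacing). Filled points passed the threshold, open points did not and ticks are annotated genes without a value, and the neighbours Mcpt9, Mcpt1, Mcpt1l1 and Mcpt10 alternate around 0.

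The other granule proteases of connective tissue mast cells were set beside the chymases. Of the list of Tpsab1, Tpsb2, Tpsg1, Cpa3 and Ctsg, 3 genes were measured and tested, 2 of them lower in the DRlyp/lyp pool and 0 higher, and their median was -1.53 on the log2 scale against 0.00 over all probe sets. The share called was 66.7% of these 3 genes, beside 39.2% of all probe sets tested. The tryptase Tpsab1 read 29.8 and 19.9 on the DRlyp/lyp arrays, against 102.8 and 77.0 on the DR+/+ arrays (log2 difference -1.87; limma, adjusted p = 0.000941). The tryptase Tpsb2 read 34.4 and 28.7 on the DRlyp/lyp arrays, against 92.6 and 89.4 on the DR+/+ arrays (-1.53; limma, adjusted p = 0.00119). Both were lower, as Mcpt1l1 was. The mast cell carboxypeptidase Cpa3 read 527.8 and 515.6 on the DRlyp/lyp arrays, against 425.8 and 462.1 on the DR+/+ arrays (0.23; limma, adjusted p = 0.107), and like Cma1 did not pass the threshold.

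Of 15 listed mast cell markers 11 were tested, 54.5% of which were called, beside 39.2% of all probe sets tested. There were 4 higher and 2 lower, around a median of 0.36 on the log2 scale. Their summed signal was 6771 to 6793 on the DRlyp/lyp arrays and 6726 to 6828 on the DR+/+ arrays. Fcer1g, the receptor chain shared by many myeloid cells, and Cd63, also widely expressed, made up 86.3% to 87.0% of that sum on the DRlyp/lyp arrays and 89.2% to 89.7% on the DR+/+ arrays. They differed in opposite directions, with Fcer1g at 4046.5 and 4016.2 on the DRlyp/lyp arrays, against 3108.2 and 3134.9 on the DR+/+ arrays, and Cd63 at 1845.2 and 1843.8 on the DRlyp/lyp arrays, against 2979.5 and 2901.0 on the DR+/+ arrays. Kit, the receptor for stem cell factor and a defining mast cell marker, stayed near the bottom of the scale. Its 1 probe set read 1.4 and 2.0 on the DRlyp/lyp arrays, against 10.4 and 11.3 on the DR+/+ arrays. The label of the cells is thus not borne out by Kit. With 1 dim set, a lack of transcript cannot be told apart from a set that reads poorly. Gata1, which with Gata2 drives mast cell genes, was also below the filter on all 4 arrays, and Gata2 was above it on 1. Ms4a2, the IgE receptor's beta chain, read 64.9 and 69.6 on the DRlyp/lyp arrays, against 83.2 and 61.5 on the DR+/+ arrays (-0.09; limma, adjusted p = 0.815). The receptor's alpha chain Fcer1a was higher (0.85; limma, adjusted p = 0.0411), but it did not pass once any of 3 arrays was left out, at adjusted p = 0.186 without DRlyp/lyp replicate 1, 0.185 without DRlyp/lyp replicate 2 and 0.213 without DR+/+ replicate 2, where the difference was 0.38. Il1rl1, the interleukin 33 receptor, read 119.9 and 113.8 on the DRlyp/lyp arrays, against 10.3 and 12.1 on the DR+/+ arrays, at least 4.13-fold higher. It is 1 of the 4 markers counted as higher, but entered the test only through the DRlyp/lyp pool and could only be higher. The granule membrane protein Cd63 was lower (-0.67; limma, adjusted p = 8.12e-06). Hdc, which makes histamine, differed by 0.36 (limma, adjusted p = 0.463).

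Genes that make, hold or check active chymase were read against the same background. Of 15 genes of activation and granule storage 13 were tested, of which 3 were higher, 3 were lower and the median was 0.19 on the log2 scale. The share called, 46.2%, lay near the 39.2% of all probe sets tested. Srgn, the serglycin core protein, was higher at 3748.6 and 4098.6 on the DRlyp/lyp arrays, against 2846.0 and 2944.8 on the DR+/+ arrays (0.44; limma, adjusted p = 0.000181). Hs6st1, which adds sulphate to heparan chains, was lower at 76.4 and 64.1 on the DRlyp/lyp arrays, against 145.3 and 185.8 on the DR+/+ arrays (-1.23; limma, adjusted p = 0.000919). Ctsc, the cathepsin C that activates chymases, differed by -0.07 at its brightest probe set (limma, adjusted p = 0.446) and by -0.63 over the mean of its probe sets (limma, adjusted p = 3.25e-05), so its sets disagree. Of 7 inhibitors or substrates that bind chymases 3 were tested and 2 were higher, Serpinb1a (0.45; limma, adjusted p = 5.35e-05) and the secretory inhibitor Slpi (0.35; limma, adjusted p = 0.000158). Of 13 genes of proteins that chymases cut 8 were tested, with fibronectin Fn1 higher (1.48; limma, adjusted p = 2.36e-07), occludin Ocln lower (-0.53; limma, adjusted p = 0.00207) and a median log2 difference of -0.14. Tgfb1 and Kitlg, 2 of the 8, were below the filter on both DR+/+ arrays and could only be higher. Neither was called, and both count in that median and in the share that follows. The shares called were 66.7% for the inhibitors and 25% for the proteins cut.

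Regulators of mast cell protease genes were called at a share near that background. Of 25 listed, 17 were tested, of which 6 were higher, 2 were lower and the median was 0.22 on the log2 scale, a share called of 47.1% beside 39.2% of all probe sets tested. Il9r, a receptor chain for a cytokine that raises mucosal mast cell proteases in mice, read 125.2 and 99.1 on the DRlyp/lyp arrays, against 41.2 and 21.3 on the DR+/+ arrays (1.91; limma, adjusted p = 0.000941). Runx1 read 1527.5 and 1791.3 on the DRlyp/lyp arrays, against 626.4 and 669.2 on the DR+/+ arrays (1.35; limma, adjusted p = 1.04e-06), and Notch1 was higher (1.09; limma, adjusted p = 0.000524). Cebpb was lower (log2 difference -0.89; limma, adjusted p = 0.00162) and Tgfbr1, a receptor for TGF-beta, was lower too (-0.41; limma, adjusted p = 0.00131). T cells also use Il9r, Runx1 and Notch1.

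Markers of other cells moved between the pools alongside the chymases. The shares called of the genes tested are read beside the 39.2% of all probe sets tested. They were 100% for T cell markers, 100% for pancreatic proteases, 80% for granzymes and perforin and 75% for macrophage markers. For B cell, basophil and neutrophil markers they were 60%, 50% and 33.3%. Of the 2 basophil markers tested, Cd200r1 lay below the filter on both DRlyp/lyp arrays and could only be lower. It was not called. Among the 10 T cell markers, all tested, there were 9 higher and 1 lower, Cd4, which lay below the filter on both DRlyp/lyp arrays and could only be lower, with a summed signal of 8057 to 8125 on the DRlyp/lyp arrays and 1851 to 2005 on the DR+/+ arrays. Of 10 serine protease genes of the exocrine pancreas, relatives of the chymases, 9 were tested and 9 were higher, 4 of which were under the filter throughout the DR+/+ pool and could only be higher, with sums of 6202 to 6461 on the DRlyp/lyp arrays and 341 to 378 on the DR+/+ arrays. Of 8 granzyme and perforin genes 5 were tested, with Gzma, Gzmm and Prf1 higher and Gzmb lower, and sums of 6105 to 6152 on the DRlyp/lyp arrays and 4832 to 5235 on the DR+/+ arrays. Among 5 B cell markers tested there were 3 lower and 0 higher, with sums of 6994 to 7310 on the DRlyp/lyp arrays and 9458 to 10479 on the DR+/+ arrays. Among 8 macrophage markers tested there were 5 lower and 1 higher, with sums of 7372 to 7546 on the DRlyp/lyp arrays and 10450 to 11307 on the DR+/+ arrays. Of 5 basophil markers, whose cells express Mcpt8 in mice, 4 were measured and 2 tested, with sums of 298 to 316 on the DRlyp/lyp arrays and 209.6 to 241.7 on the DR+/+ arrays, with 84.6% to 85.3% of the sum on the DRlyp/lyp arrays and 72.0% to 74.4% on the DR+/+ arrays from Cebpa, which other myeloid cells also express. Of 10 neutrophil markers 3 were tested and 1 was higher, with sums of 771 to 807 on the DRlyp/lyp arrays and 489 to 630 on the DR+/+ arrays, and Lcn2 did not exceed 3.3. The part of these cells in the chymase differences was not tested.

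The signal of the 3′ and 5′ control sets, which depends on RNA quality and amplification, also differed. The 3′ minus 5′ log2 signal of beta-actin was 4.43 and 4.55 on the DRlyp/lyp arrays, against 3.01 and 3.10 on the DR+/+ arrays, and that of GAPDH was higher by 0.81 in the DRlyp/lyp pool. With 1 pool per group this difference cannot be told apart from the genotype, and its part in the chymase differences was not tested.

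Other genes had profiles close to those of the members over the 4 arrays. By Euclidean distance of log2 signals centred on each gene's mean, the nearest of 9348 other genes to Mcpt1 were Osgin1 (0.02), Leprotl1 (0.06) and Znrf2 (0.07), and 393 genes lay within 0.5. Nearest to Mcpt1l1 were Rnf113a2 (0.10), the T cell coreceptor Cd4 (0.10) and Dhx32 (0.17), and 14 genes lay within that distance. Cd4 and Dhx32 lay below the filter on both DRlyp/lyp arrays and could only be lower. Mcpt3 lay nearest to Ube2c (0.06), Yipf3 (0.08) and Dctn1 (0.10), among 601 genes within it. Mcpt4 lay nearest to Lrrc23 (0.18), Resp18 (0.35) and Fam171a1 (0.37), among 11 genes. Mcpt9 lay nearest to Ssbp1 (0.04), the adaptor Grb2 (0.06) and Abtb3 (0.06), among 1293 genes. No chymase was among the 3 nearest of another.

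**Figure D4:**
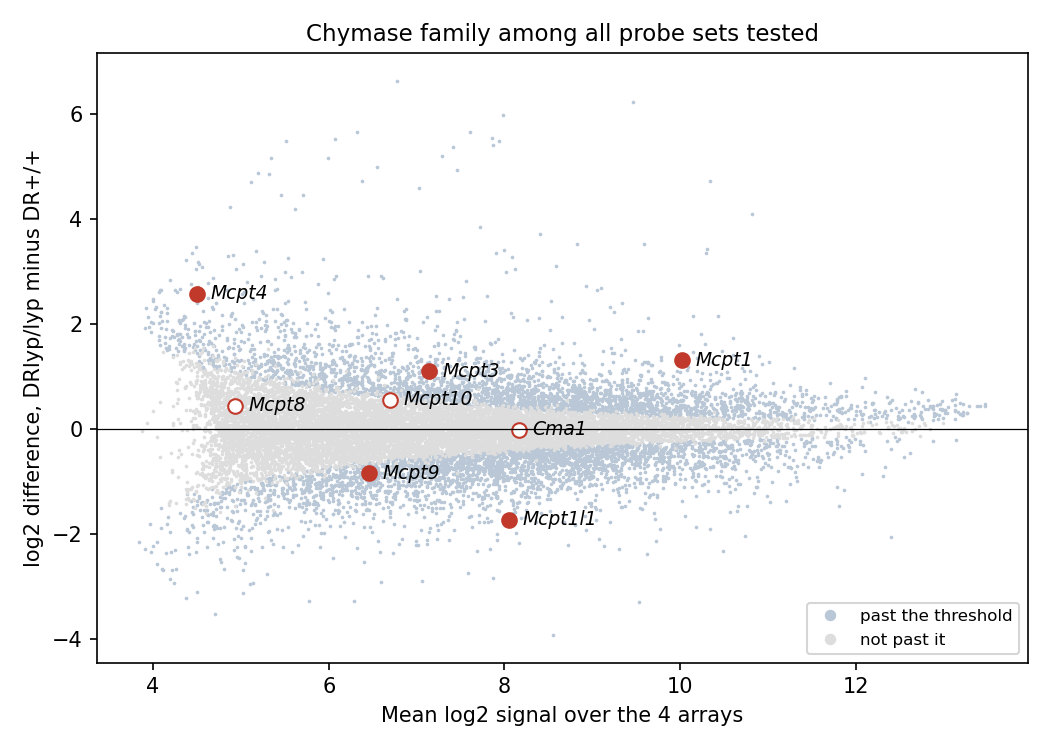
Difference between the pools on the log2 scale (vertical axis, DRlyp/lyp minus DR+/+) against mean log2 signal over the 4 arrays (horizontal axis) for the 16068 probe sets tested, with the 8 chymase probe sets as large points, filled where past the threshold. Mcpt1 and Mcpt1l1 lie on opposite sides of the midline, with 3.65% of the sets above Mcpt1 and 1.08% below Mcpt1l1. Cma1 lies on the midline.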

How the data were processed

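Each of the 4 arrays has 1 deposited value per probe set of the Affymetrix Rat Genome 230 2.0 array, an intensity on a linear scale; the summarising program is not given in the sources used here. Per the labels' design text, about 50 ng of RNA was amplified in 2 cycles. All arrays had a 2% trimmed mean of 150.1, and no further scaling was done. Groups and replicate numbers were read from the sample titles. Of 31099 probe sets, 57 controls were left out. Signals below the pooled 25th percentile (6.8) were raised to it, log2 transformed, and tested where above the pooled median (28.3) on at least 2 arrays. The two-sided fit was by limma 3.58.1 in R 4.3.3, using lmFit and eBayes with an intensity trend, and left 2 residual degrees of freedom. Folds refer to these floored signals. Where both arrays of a pool lay below 28.3, that pool was set at 28.3 to give a bound.

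Symbols came from the platform annotation of 2016, in which 20832 probe sets had 1 symbol and 436 several. All 8 members' Entrez numbers were found in the RefSeq table of GRCr8 under the same symbol. The files name no build, so that table served for names and gene order, and coordinates are printed only with RefSeq's own promoter stretches. Promoter windows were aligned in Biopython 1.88 with free end gaps. Pairs of near copies were to be chosen by protein identity; proteins were not used here, so the 7 pairs with at least 60% identity of promoter windows were taken. The members and lists were chosen with earlier results of these data known. Other genes were represented by their brightest tested probe set; those named were up to 3 called per list and direction, fixed markers and the 3 nearest profiles of each called member.

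The fit was tested on simulated data. Alternatives were quantile normalization and median centring; a filter at the 75th percentile or none; an offset of 50, or a lower floor (10th percentile); a replicate block; a fit without the intensity trend; a 1.5-fold minimum in the test; averaging a gene's probe sets; and leaving out each array. Plots used matplotlib 3.10.9 and Python 3.11.15.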

Additional observations from a re-analysis of the deposited data

How the results depend on the processing

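Of 100 member values under alternatives, 90 kept their direction and side of the threshold, 8 fell short of it, 2 passed it and 0 called values changed sign. Mcpt1 passed in all 13 alternatives. With no filter on dim probe sets, limma called 1 member higher and 0 lower, against 3 and 2. Adjusted p was then 0.166 for Mcpt1l1, 0.0718 for Mcpt3, 0.105 for Mcpt4 and 0.140 for Mcpt9, and unadjusted p was 0.0345, 0.00677, 0.0148 and 0.0252, so that both lower members passed before adjustment. With the filter, limma's unadjusted p for them was 1.85e-05, 8.81e-05, 0.000159 and 0.00359. Unadjusted p was thus higher with no filter as well. That setting called 844 probe sets higher and 827 lower in all (3104 and 3198 with the filter), and 23 and 8 of the list genes (41 and 22). Without the intensity trend 1932 were higher and 2125 lower. A test against a 1.5-fold difference left 480 and 478, 22 and 8 of the list genes (both counts were added after seeing the data), and 1 lower member, and Mcpt3 (adjusted p = 0.117) and Mcpt9 (0.7497) did not pass. A filter at the 75th percentile left 4 members to test, 1 of them lower. For calls that changed, the cause was not tested.

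Leaving out 1 array gave 1595 to 2987 higher and 1883 to 2813 lower probe sets, the fewest without DRlyp/lyp replicate 1 (1712 and 2055 without DRlyp/lyp replicate 2), 3 to 4 higher and 1 to 2 lower members, and 32 to 42 higher and 18 to 20 lower list genes. Adding 50 to every signal, and setting no floor, changed the pairs with Mcpt4: the difference of Mcpt1 minus that of Mcpt4 reversed, at 0.38 against -1.27, that of Mcpt1l1 minus Mcpt4 was -2.29 against -4.30 and that of Mcpt3 minus Mcpt4 was -0.0554 against -1.48, where Mcpt4 was below the filter on both DR+/+ arrays. Without 1 array, Mcpt1 minus Mcpt1l1 lay between 2.55 and 3.51 and Mcpt8 minus Mcpt9 between 0.66 and 1.92. Same-numbered arrays of the pools did not deviate together (r = 0.0438 over probe sets tested, which are not independent), and the labels do not pair them. The replicate block called 3492 probe sets higher and 3552 lower, and Mcpt10 passed under it (0.56, adjusted p = 0.0420); it changed no other member's call.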
